A study of Homo sapiens with 4 samples.

Results

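The olfactory receptor gene clusters were examined as 11 windows of hg19 on chromosomes 1, 6, 7, 9, 11, 14, 17 and 19, which together span 9.47 Mb, or 0.306% of the chromosome spans covered by the lists. Members are the listed regions whose midpoint fell inside a window. This gave 3648 of 257073 H3K27me3 regions, a share of 1.42%, and 12 of 32543 CHD5 peaks, a share of 0.0369%. The windows are defined by position alone, but were proposed with earlier results of these data known.

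Both profiles come from chromatin immunoprecipitation followed by sequencing in SH-SY5Y, a human neuroblastoma line that was held in 10 uM retinoic acid for 8 days. For CHD5, a chromatin remodeller, cells expressing the construct FBio-CHD5 were used and chromatin was captured on streptavidin beads, so the profile is that of an introduced, tagged protein. H3K27me3, the histone mark set by Polycomb repressive complex, was precipitated by antibody from cells of the same FBio-CHD5 line. A pull-down from FBio-Ctrl cells and an input library, both likewise treated with retinoic acid, make up the 4 samples, and no region lists of these 2 were used here. Each group is 1 library, so no value has a replicate error and no test between conditions was possible. Depth is unknown because the lists hold no read counts.

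Olfactory receptors are G protein-coupled receptors that bind odorants at the surface of sensory neurons in the nasal epithelium. They form the largest gene family in mammals and lie in clusters that arose by local duplication, with many inactive copies among them. In the sensory neuron, as a rule, 1 receptor allele is transcribed while the others are kept silent, mainly in heterochromatin marked by H3K9 methylation. Other cell types have little use for these genes.

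The gene content of the clusters was taken from RefSeq's GRCh38.p14 table, by symbol and by the order of neighbours only. Runs of receptor genes were read around 12 genes known from these bands, allowing up to 10 other genes between neighbouring receptors. They hold 459 receptor genes, of which 253 are protein-coding and 206 are pseudogenes, and make up 52.6% of the 872 receptor genes and pseudogenes in the table. The run at 11q11-12 is the longest, with 117 genes and the families OR5 and OR8 in the lead, followed by the run at 11p15 with 103 genes, whose protein-coding members are led by OR52 with 25 and OR51 with 23. The runs at 1q44, with 56 genes, and 7q35, with 19, are led by OR2. Those at 9q31 and 9q33 hold 12 and 15 genes, led by OR13 and OR1, and the run at 17p13 holds 18, led by OR1 and OR3. At 19p13 the genes fall into separate runs, OR7C1 to OR10B1P and OR10H2 to OR1AB1P, with more than 10 other genes between them. They are counted together as a single run. Leading families were counted over protein-coding genes. The borders of these runs need not match the windows, and since the builds differ no gene was placed against a region. Whether the flanks also hold receptor genes was not checked.

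The promoters of the clusters are shown because they differ from most promoters in CpG content. How this relates to H3K27me3 in the clusters was not tested. RefSeq's GRCh38.p14 promoter table has 209 receptor genes of the 11 runs. In the 250 bases before the start, these had a median of 1 CpG (quartiles 0 and 2), against 11 (quartiles 3 and 23) over all 35116 genes of the table. Windows with no CpG made up 26.8% of the receptor set and 6.06% of all. The median GC content was 36.4% against 58.0%. For 84 of the 209 receptor genes, or 40.2%, the start in the table is the start codon itself, against 2.29% of all genes, so that the window then lies before the coding sequence and not before a mapped transcription start. Among the 125 receptor genes whose table start is not a start codon, the median was again 1 CpG. Below are the windows with the fewest, the middle and the most CpGs of these 125, written 5′ to 3′ with each CpG in capitals. OR10C1 lies on the plus strand in the run at 6p22, OR52N5 on the minus strand at 11p15 and OR3A2 on the minus strand at 17p13.
OR10C1: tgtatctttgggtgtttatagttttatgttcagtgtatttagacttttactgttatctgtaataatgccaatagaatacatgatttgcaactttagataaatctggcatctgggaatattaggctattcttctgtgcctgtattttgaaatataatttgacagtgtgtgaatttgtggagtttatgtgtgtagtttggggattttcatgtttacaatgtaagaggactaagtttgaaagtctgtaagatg
OR52N5: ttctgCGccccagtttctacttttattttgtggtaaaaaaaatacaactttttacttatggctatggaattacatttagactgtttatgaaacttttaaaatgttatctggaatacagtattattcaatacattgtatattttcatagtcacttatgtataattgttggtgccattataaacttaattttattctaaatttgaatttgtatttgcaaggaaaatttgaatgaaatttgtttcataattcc
OR3A2: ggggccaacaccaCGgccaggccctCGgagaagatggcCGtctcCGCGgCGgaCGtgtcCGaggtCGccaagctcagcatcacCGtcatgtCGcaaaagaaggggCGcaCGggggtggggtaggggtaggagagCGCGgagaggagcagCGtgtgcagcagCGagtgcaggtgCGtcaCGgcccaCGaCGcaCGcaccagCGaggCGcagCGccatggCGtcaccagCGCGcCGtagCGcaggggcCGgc
The window of OR10C1 has 0 CpGs, that of OR52N5 has 1 and that of OR3A2 has 31, where the next highest of the 209, at 1q44, has 16. By run, the median was 3 CpGs at 17p13 and 2 at 19p13, and it was at most 1 in each of the other 9 runs.

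**Figure D1:**
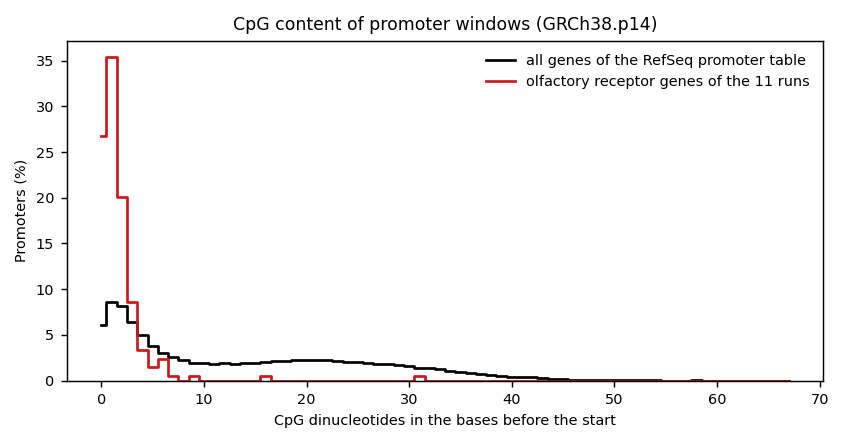
Share of promoters (vertical axis, %) by number of CpG dinucleotides in the 250 bases before the start (horizontal axis), for 209 olfactory receptor genes (red) and all 35116 genes (black) of the RefSeq table. The red line peaks at 1 CpG and has a single promoter at 31, while the black line stays broad, with a median of 11.

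The main comparison set each cluster against the 1 Mb on either side of it. The clusters were rich in H3K27me3 and poor in CHD5. H3K27me3 regions covered 14.7% of the cluster length and 8.50% of the flanks, a ratio of 1.73, and numbered 385 against 189 per Mb. CHD5 peaks numbered 1.27 per Mb in the clusters and 12.8 per Mb in the flanks, a ratio of 0.0989. The 12 cluster peaks are 4.20% of the 286 peaks in clusters and flanks (Wilson 95% interval 2.42% to 7.19%, covering counting error only), where the clusters hold 30.7% of the length. Over the whole span the lists average 2.82% H3K27me3 cover and 10.5 CHD5 peaks per Mb.

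By cluster, H3K27me3 cover was above that of the flanks in 10 of 11 windows and at least 2-fold above in 8 of 11. Of 2742 autosomal windows of 1 Mb with H3K27me3 in the window or its flanks, 41.3% were above their flanks and 25.1% at least 2-fold above. The median of the 11 folds was 2.74. Cover also exceeded that of the own chromosome in 11 of 11 clusters, by 1.57-fold at 9q31 to 9.14-fold at 11p15, with a median of 3.65, where 26.8% of the 2750 autosomal windows of 1 Mb with any region exceeded theirs. In 8 clusters the cover lay above 10.4%, the level that 90% of these windows did not pass. The median such window had a cover of 0.162%.

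No CHD5 peak was listed in 8 of 11 clusters. Windows of 1 Mb were without a CHD5 peak in 9.27% of cases, and windows of 0.5 Mb, a size nearer to the smaller clusters, in 16.6%. CHD5 density was below that of the flanks in 11 of 11 clusters, against 53.9% of the 1-Mb windows. Windows rich in H3K27me3 are a closer yardstick. Among 1-Mb windows with at least 5% cover, 17% had no CHD5 peak, and among such 0.5-Mb windows 39.4%. Of the 10 clusters with that cover, 7 had none. A high cover together with an absent CHD5 peak, at least 2-fold above the flanks and 0 peaks, was met by 6 of 11 clusters and by 2.22% of the 1-Mb windows. The clusters range from 0.21 to 1.84 Mb in length, and a short window misses CHD5 more easily.

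**Figure D2:**
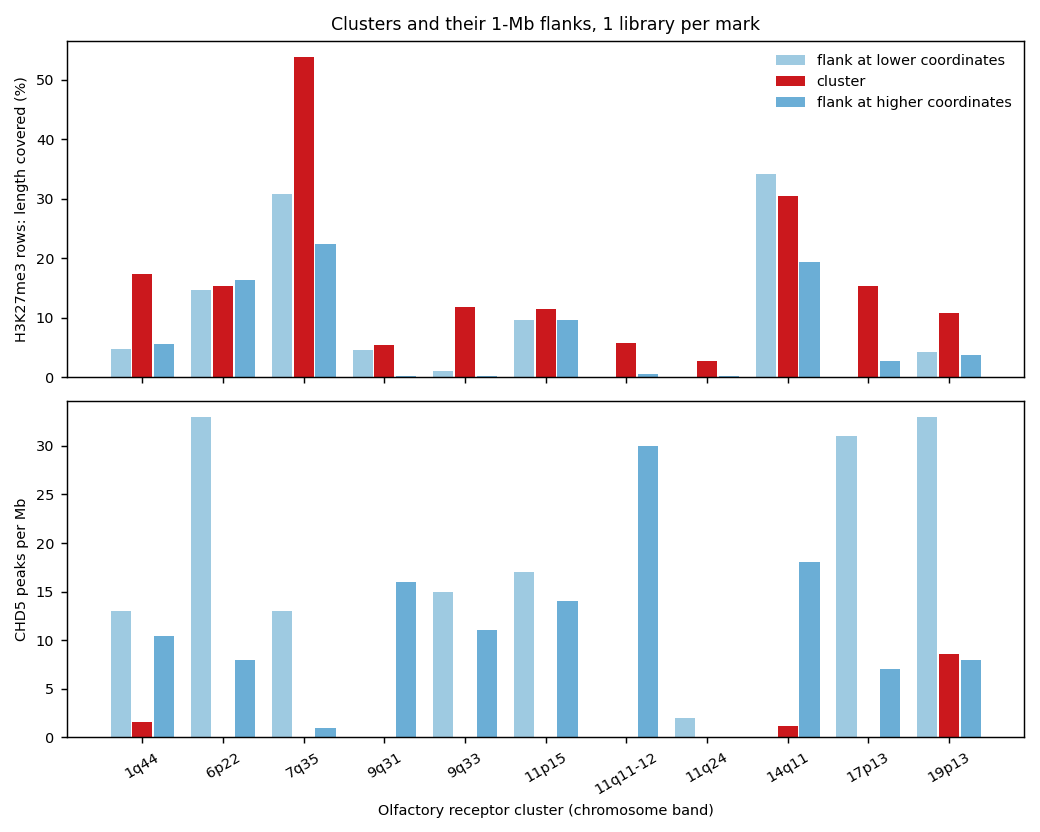
Length covered by H3K27me3 regions (%, upper panel) and CHD5 peaks per Mb (lower panel) in each of the 11 clusters (red) and in the 1-Mb flank on either side (blue), from 1 library each and without error bars. Red bars stand above both blue bars in 9 clusters in the upper panel, and in the lower panel 8 clusters have no red bar.

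The count of clusters above their flanks depends on the fold and on where the flanks end. At a limit of 1.5-fold 8 clusters passed, against 31.7% of the 1-Mb windows, and at 3-fold 5 passed, against 18%. With flanks of 0.5 Mb, 6 clusters passed at 2-fold, and the fold fell below 1 at 11p15, with 0.941, and at 14q11, with 0.721. At 11p15 it was also below 1, at 0.973, when only regions scoring at or above the median of their list were used. The CHD5 ratio is raised by the cluster at 19p13, which holds 9 of the 12 peaks: without it the ratio was lower, at 0.0296.

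The cluster at 17p13 had a sharp contrast with one side. It spans chromosome 17 from 2950001 to 3350000 and held 188 H3K27me3 regions, a cover of 15.4%. The flank at lower coordinates held 1 H3K27me3 region and 31 CHD5 peaks, and the cluster held none of the latter. Within 100 kb of that edge, cover was 18.6% inside and 0% outside, and 6 CHD5 peaks lay outside. At the other edge the mark ran on, with a cover of 27.1% in the next 100 kb against 7.21% inside. The flank at higher coordinates had a cover of 2.80% and 7 CHD5 peaks. All 8 of the 50-kb bins of the cluster held H3K27me3, and the nearest CHD5 peaks on either side of it were 661 kb apart.

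The cluster at 9q33, chromosome 9 from 125230001 to 125570000, stood out from both flanks. Its 144 H3K27me3 regions gave a cover of 11.8%, against 1.07% and 0.299% in the flanks. The flanks held 15 and 11 CHD5 peaks and the cluster 0. All 7 bins of the cluster held H3K27me3, while 6 of 40 flank bins did, a share of 15%. On the same chromosome, the cluster at 9q31, from 107260001 to 107470000, marked a turn from one profile to the other. The flank at lower coordinates had 196 H3K27me3 regions and 0 CHD5 peaks, and the flank at higher coordinates had 6 H3K27me3 regions and 16 CHD5 peaks. The cluster itself had 47 regions, a cover of 5.48% and 0 CHD5 peaks. Its cover was close to that of the lower flank, 4.60%, and 31.9-fold that of the higher flank.

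The clusters at 11q11-12 and 11q24 had high folds over nearly empty flanks. At 11q11-12, chromosome 11 from 55000001 to 56600000, cover was 5.82%, against 0.0204% and 0.488% in the flanks. The flank at lower coordinates lies towards the centromere and held 2 H3K27me3 regions and 0 CHD5 peaks, so the fold against it has little behind it. Its first listed region starts at 54965257, yet the pooled flank values count its full 1 Mb. The flank at higher coordinates held 30 CHD5 peaks, the first of them 12.96 kb beyond the window. The mark was uneven along the cluster, in parts set after its profile was seen. The first 500 kb held 18 regions, a cover of 0.717%, the next 600 kb held 109, a cover of 5.16%, and the last 500 kb held 208, a cover of 11.7%. A stretch of 229 kb from 55071912 to 55301300 held no H3K27me3 region. At 11q24, from 123600001 to 124450000, the cover of 2.72% was the lowest of the 11 clusters, and the flanks had 0.00760% and 0.218%. The flanks of 11q24 were also poor in CHD5, with 2 and 0 peaks, so that the absence of CHD5 there sets the cluster little apart. The surrounding CHD5-free stretch of 2914 kb was the fifth longest gap between CHD5 peaks on the chromosome.

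At 11p15, chromosome 11 from 4380001 to 6220000, the largest cluster held 777 H3K27me3 regions and 0 CHD5 peaks in 1.84 Mb. All 37 of its bins held H3K27me3, with a median of 20 regions per bin. Its cover of 11.5% was close to that of its flanks, 9.70% and 9.63%. The flanks held 17 and 14 CHD5 peaks. Here the cluster and its flanks differed in CHD5 far more than in H3K27me3, and the mark was denser just outside the window than just inside, at 48.03% against 12.9% at the lower edge and 23.3% against 10.1% at the higher. The CHD5-free stretch around this cluster was 2145 kb long. The first 0.62 Mb of the cluster fall in the first 5 Mb of the short arm and held 303 H3K27me3 regions and 0 CHD5 peaks.

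The cluster at 7q35, chromosome 7 from 143600001 to 144100000, had the highest cover, 53.9%, with 302 regions in 0.5 Mb. Its flanks were themselves rich, at 30.8% and 22.4%. The first 71.0 kb of the window held no H3K27me3 region, and the last 100 kb had a cover of 79.6%. The flanks held 13 and 1 CHD5 peaks, one of them ending 0.429 kb before the window. Regions were wide here and in the flanks. Their median width in the cluster was 538.5 bp, against 351 bp over chromosome 7 and 238 bp in the whole list. In the flanks it was 528.5 bp at lower and 403 bp at higher coordinates. The median score in the cluster, the peak caller's own value as deposited by the authors, was 146 against 106 over the chromosome. In the same flanks it was 138 and 101.

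At 14q11, chromosome 14 from 19900001 to 20750000, cover was 30.5%, below the 34.1% of the flank at lower coordinates and above the 19.4% of the other. The median width of its 403 regions was 391 bp against 231 bp over the chromosome. In the flank at lower coordinates it was larger, 473.5 bp, and in the other it was 253 bp. The mark thinned along the window, and the 100 kb inside the higher edge had a cover of 12.3% against 0% outside it. A single CHD5 peak lay in the cluster, from 20704851 to 20705701, and 18 lay in the flank at higher coordinates. At 6p22, chromosome 6 from 29000001 to 29580000, inside the extended major histocompatibility region, the cover of 15.3% lay between that of the flanks, at 14.8% and 16.4%. CHD5 differed there, with 33 and 8 peaks in the flanks and 0 in the cluster.

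At 1q44, chromosome 1 from 247600001 to 248850000, the cover of 17.5% compared with 4.70% and 5.67% in the flanks, the second of which is cut to 0.383 Mb by the last listed region of the chromosome. At the lower edge the mark reached beyond the window, with a cover of 46.1% in the 100 kb outside against 54.7% in the 100 kb inside. Within the window it formed 2 denser blocks, delimited after the profile was seen. The first 500 kb had a cover of 28.3% and the last 250 kb one of 22.3%, while the 500 kb after the first block had 4.20%. Both CHD5 peaks of the cluster lay in that thinner middle part.

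The cluster at 19p13, chromosome 19 from 14900001 to 15950000, was the exception for CHD5. The receptor genes of this band fall into separate runs, with other genes within and between them. It held 447 H3K27me3 regions, a cover of 10.9% against 4.20% and 3.75% in the flanks, and 9 CHD5 peaks, 8.57 per Mb. The flank at lower coordinates had 33 CHD5 peaks and the other had 8, so the cluster did not stand below the second. Both profiles were unevenly spread over the window. The 335 kb before the first CHD5 peak held 295 H3K27me3 regions, a cover of 22.6%. The 658 kb from the first CHD5 peak to the last held 124, a cover of 4.81%, and 107 of these lay in 4 neighbouring 50-kb bins with covers of 7.08% to 23.6% and 0 CHD5 peaks. The longest stretch without H3K27me3 in any cluster, 303 kb from 15263856 to 15566977, held 6 of the 9 CHD5 peaks.

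**Figure D3:**
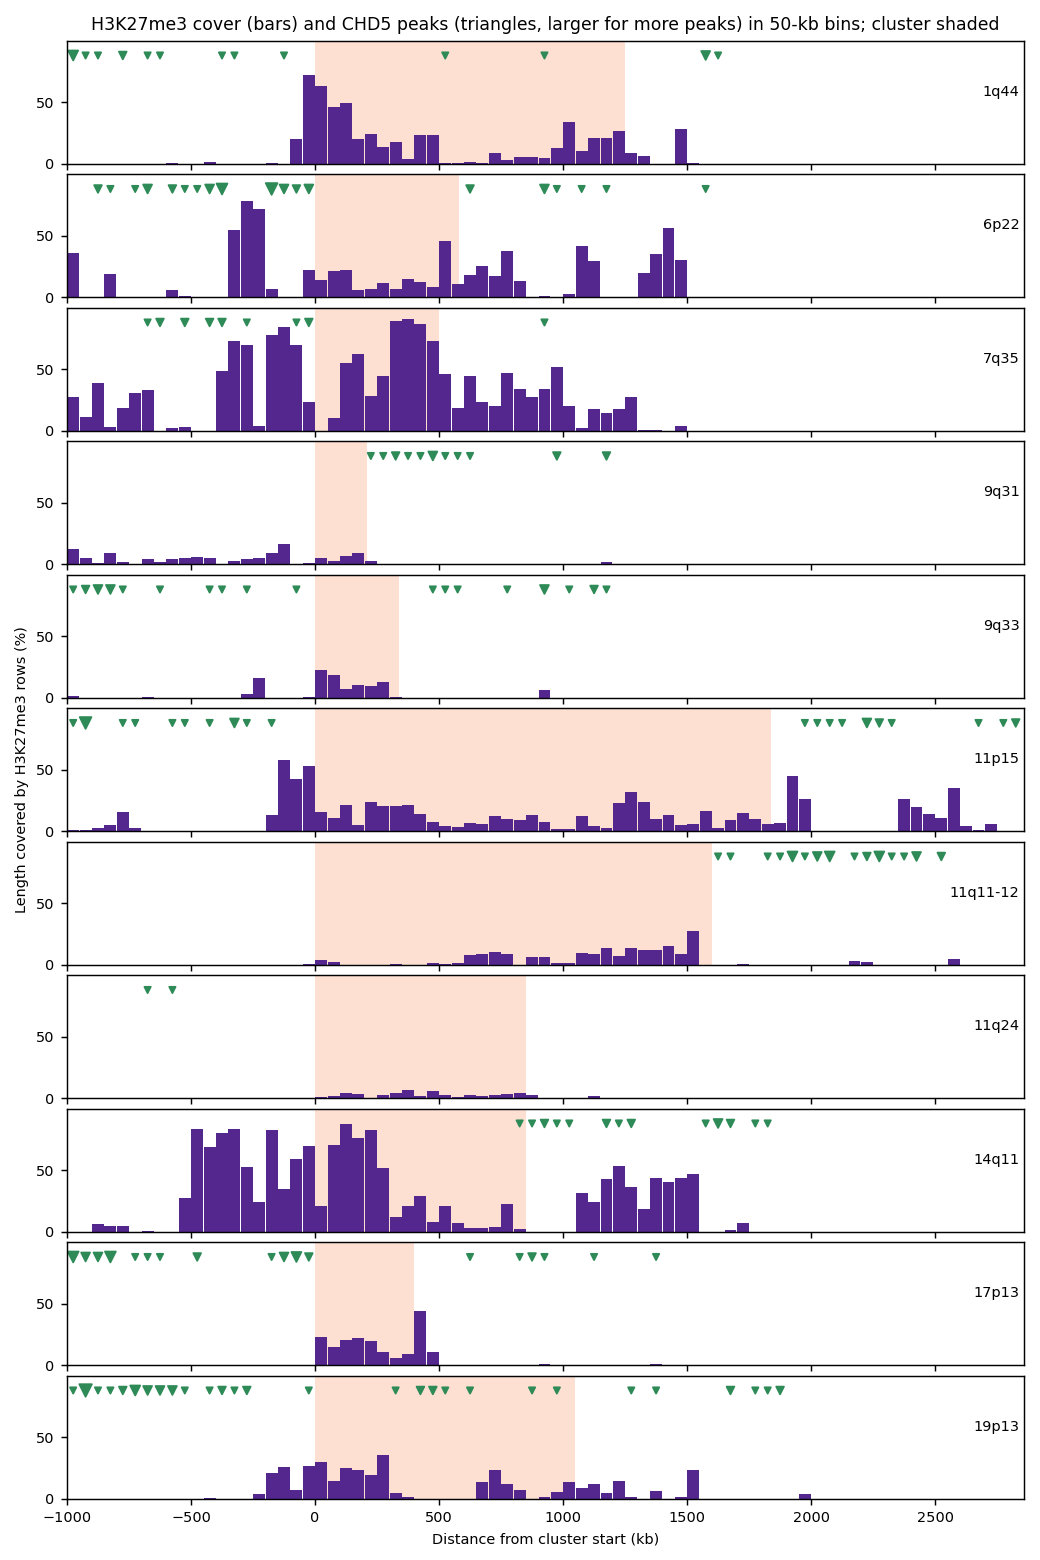
Length covered by H3K27me3 regions (bars, %) and bins with CHD5 peaks (triangles, larger for more peaks) in 50-kb bins against the distance from the start of each cluster (kb), with the cluster shaded. Triangles are absent from 8 shaded windows and, at 19p13, stand mostly over low or absent bars.

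Most 50-kb bins of the clusters held at least 1 H3K27me3 region. A single short region is enough for this, as in a bin at 1q44 with a cover of 0.296%. Bins elsewhere in the genome were not measured. Of 190 bins centred in a cluster, 169 held H3K27me3 alone, 5 CHD5 alone, 5 both and 11 neither. Of 429 bins in the flanks, 131 held H3K27me3 alone, 116 CHD5 alone, 40 both and 142 neither. H3K27me3 was thus present in 91.6% of cluster bins and 39.9% of flank bins, and CHD5 in 5.26% and 36.4%. At the 22 window edges, cover in the 100 kb inside was above that in the 100 kb outside at 16. Inside and outside, the medians were 12.6% and 8.88%, while the means lay closer, at 18.5% and 16.0%. At the other edges, among them both edges of 11p15, cover was higher outside. Edges of other windows were not measured, so no background share is given. The strips at the 22 edges held 2 CHD5 peaks inside and 26 outside, the latter at 9 of the edges.

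Joining H3K27me3 regions separated by up to 3 kb gave 503 domains in the clusters. They took up 31.8% of the cluster length, against 15.3% of the flanks. By cluster the share ran from 11.5% at 11q24 to 71.2% at 7q35, and 9 of the 11 lay between 16.6% and 47.3%. The 503 domains were mostly short: their median width was 2.27 kb, where that of all 38537 domains was 1.57 kb. Of the 503, 6, or 1.19%, were at least 50 kb wide, against 1.10% of all.

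The 2 widest of the 503 domains were of similar size. That at 14q11, from 19972847 to 20191999, spanned 219 kb, of which 76.6% lay inside listed regions. That at 7q35, from 143869139 to 144082977, spanned 214 kb with 84.9% inside, and 7q35 had another of 101 kb from 143710426 to 143811279. The others of at least 50 kb were looser. At 19p13 the domain from 14900888 to 14965561 was 64.7 kb wide with 30.5% inside regions, at 6p22 that from 29510283 to 29560578 was 50.3 kb with 55.6%, and at 11p15 that from 5615075 to 5665192 was 50.1 kb with 44.2%. Among the 503, the widest domain of each remaining cluster was smaller. It measured 35.7 kb at 11q11-12 from 56500627 to 56536329 and 35.6 kb at 1q44 from 247692450 to 247728079. At 1q44 the uncounted domain across the lower edge was wider than this. At 9q33 it was 30.4 kb wide, from 125268201 to 125298635, and at 17p13 26.5 kb, from 3011421 to 3037906. At 9q31 the widest reached 15.8 kb, from 107418046 to 107433840, and at 11q24 8.13 kb, from 123862975 to 123871108.

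**Figure D4:**
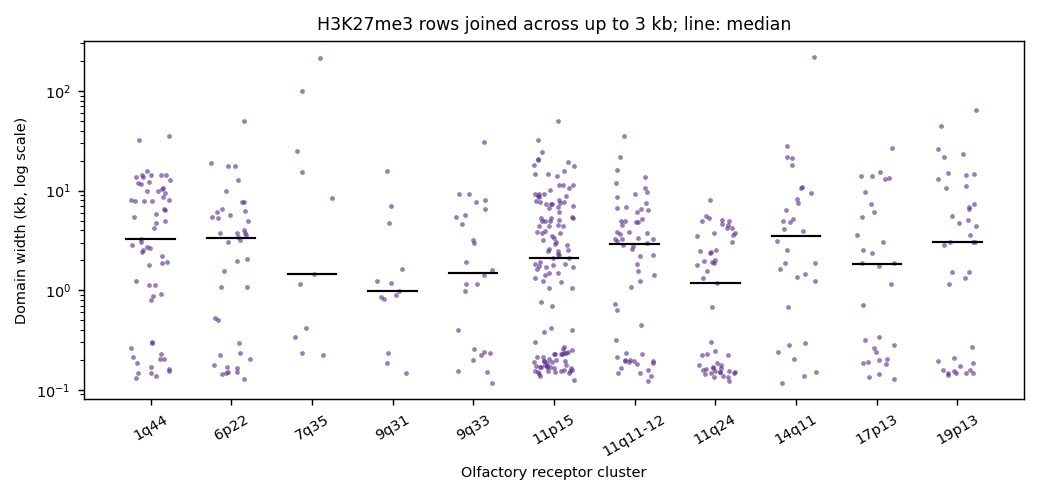
Width of each joined H3K27me3 domain with its midpoint in a cluster (points, kb, log scale), for the 11 clusters, with the median of each cluster as a line. A domain of about 219 kb at 14q11 and domains of 214 and 101 kb at 7q35 stand above the rest, and the medians lie between 0.974 and 3.52 kb.

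Over all clusters the median width was 0.249 kb against 0.238 kb in the whole list, and the median score 86.96 against 84.59. Regions of at least 1 kb numbered 178, or 4.88%, against 3.43% of the list, and 77 of them lay at 7q35 and 58 at 14q11. The widest region spanned 8.71 kb at 14q11, on chromosome 14 from 20144118 to 20152832, with a score of 3100. That score was the highest in the clusters and was shared by 5 regions, 3 at 14q11 and 2 at 7q35. They include the next widest, from 19952101 to 19960154 on chromosome 14 and from 143945748 to 143952990 on chromosome 7. The lowest medians were those of 11q24, 165 bp and a score of 62.9, against 221 bp and 78.5 over chromosome 11. Receptor genes include near-identical copies, and how reads matching more than 1 place were handled is not given in the sources used here. Its part in the cover was not tested.

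None of the 12 CHD5 peaks in the clusters overlapped an H3K27me3 region (Wilson 95% upper limit 24.2%). In the flanks 12 of 274 did, or 4.38% (Wilson 95% interval 2.52% to 7.50%), and in the whole list 2.19%. With 12 peaks, a share as low as that of the flanks could not be told from 0. The cluster peaks were short and mostly weak. Their median width was 1194 bp, against 1417.5 bp in the flanks and 1647 bp in the list, and their median score was 80.1, against 96.8 and 117. Of the 12, 9 scored below the median of the list.

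The peaks at 1q44 lay on chromosome 1 from 248100218 to 248101443, with a score of 102, and from 248546397 to 248548036, with 79.4. They were 1.34 and 4.86 kb from the nearest H3K27me3 region. The peak at 14q11 scored 71.0 and was 2.37 kb from one. These 3 peaks thus lay close to the mark without touching it.

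At 19p13 the peaks lay farther off. The first, from 15234761 to 15236188, scored 80.8 and was 6.60 kb from H3K27me3, and the other 8 were between 16.5 and 140 kb away. The highest score of all cluster peaks, 454, belonged to the peak from 15781758 to 15783300, followed by 330 from 15404067 to 15406521 and 213 from 15891807 to 15892968. The peak from 15376285 to 15377340 scored 102. The remaining 4, which start at 15306996, 15310903, 15390619 and 15530806, scored between 53.4 and 56.0. Of the 9 peaks, 4 scored above the chromosome's median of 99.9, in a list whose smallest score is 50.

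Seen from the mark, 0 of the 503 cluster domains held a CHD5 peak, against 1.72% of all 38537 domains. This largely restates the lack of CHD5 peaks, since 8 of the 11 clusters had none. A CHD5 peak lay within 10 kb of 6 cluster domains, or 1.19%, against 6.5% of all, and within 100 kb of 79, or 15.7%, against 29.6%. The median distance from a cluster domain to the nearest CHD5 peak was 274 kb, against 227 kb for all domains in the list.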

How the data were processed

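The deposited files used are a list of CHD5 peaks and a list of H3K27me3 regions, each a MACS peak list of 1 library per the file headers, on hg19 per the submitters' processing notes. Column 5 is a score per region made by the authors' peak caller, deposited without a stated scale, with a smallest value of 50 in both lists; it was used only within its own list. The sources used here do not name the MACS version, threshold, background library, aligner or handling of reads with several matches. A narrow peak caller splits a broad mark into many short regions. Depth per sample is unknown.

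Groups came from the sample titles. Every listed region was used. Regions and joined domains were assigned by midpoint, and cover was clipped at the window. Chromosome spans ran to the highest listed end, and flanks were cut there. Gaps in the assembly were not removed from spans or flanks. Fixed windows of 1 Mb, tiled along chromosomes 1 to 22, gave the background shares, and windows of 0.5 Mb, 50-kb bins, edges and parts of clusters were added after the data were seen. No test was run, as each group is 1 library. Wilson intervals cover counting error only. All 11 clusters, the widest domain of each, all CHD5 peaks in the clusters, the widest H3K27me3 region and those with the 3 highest scores (5 tied, of which the 3 widest are named) were named by rule. The windows and rules were chosen with earlier results of these data known. Alternatives covered assignment, flank length and side, score, joining distance, fold limit, overlap and the clusters included. Counting routines were tested on simulated data. The tools were matplotlib 3.10.9, scipy 1.17.1, pandas 2.3.3 and numpy 2.4.6 under Python 3.11.15.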

Additional observations from a re-analysis of the deposited data

How the results depend on the processing

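Pooled over clusters, the direction of the 3 comparisons with the flanks (cover, regions per Mb and CHD5 peaks per Mb) held under every alternative run. H3K27me3 cover in clusters over flanks ranged from 1.19 with flanks of 0.5 Mb to 2.15 with flanks of 2 Mb, and regions per Mb from 1.53 to 2.35. The CHD5 ratio moved to 0.0579 with scores at or above the list medians and to 0.0296 without 19p13, an alternative added after the data were seen; without 1q44, 11q11-12 and 14q11 it was 0.119, and the settings that kept all clusters and scores gave 0.0888 to 0.112. Clusters at least 2-fold above their flanks numbered 5 at a 3-fold limit and 8 at 1.5-fold. The share of cluster length in domains was 50.1% when joined across up to 10 kb and 20.2% with scores at or above the median. No cluster CHD5 peak overlapped H3K27me3 under any setting, and 4 lay within 10 kb. Apart from the CHD5 ratio, moved values follow from looser or stricter limits or fewer regions by construction. With the score limit the CHD5 ratio could have moved either way. Leaving out 19p13, which holds 9 of the 12 cluster peaks, was bound to lower the ratio. Leaving out each cluster in turn gave 1.59 to 1.99 for cover, 1.85 to 2.40 for regions per Mb, 0.0296 to 0.125 for CHD5, 7 to 8 for clusters at least 2-fold above their flanks and for clusters without CHD5, and 29.7% to 34.9% for domains. No paired analysis was possible because each group is 1 library and no result comes from a test. Without read counts, what depth limits in either list is unknown.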

Other observations

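On chromosome 14, the CHD5 peak inside the cluster at 14q11 was the first of the chromosome, and 833 H3K27me3 regions were listed before it. The cluster thus lies at the end of a stretch with the mark and without CHD5 that also takes in its flank at lower coordinates. The first region listed in that flank starts at 19000569. The stretch is therefore read from there and not from the start of the chromosome. Of the 22 flanks, 4 held no CHD5 peak, those at lower coordinates of 9q31, 11q11-12 and 14q11 and that at higher coordinates of 11q24.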
